A study of Rattus norvegicus with 12 samples.

Results

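Eif4b encodes a translation initiation factor, and Rpl13a and Rplp1 encode proteins of the large ribosomal subunit. These 3 genes were followed through the thoracic aorta of normotensive and hypertensive rats. They were chosen as the probes whose accession is that of rat Eif4b, Rpl13a or Rplp1, which gave 1 probe per gene, and they are 3 of the 38 genes that could be named on the array. The Eif4b probe was printed in 10 spots on every array, and the Rpl13a and Rplp1 probes in 30 spots each.

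Translation of most messenger RNAs begins when the eIF4F complex binds the cap and the helicase eIF4A unwinds the leader of the message. The Eif4b protein stimulates that helicase and is phosphorylated downstream of growth factor and mTOR signalling. Rpl13a sits on the body of the large ribosomal subunit and has been described outside the ribosome in an inflammation-linked complex that silences selected messages. Rplp1 is an acidic protein of the flexible stalk that recruits elongation factors. Messages of ribosomal proteins typically begin with a run of pyrimidines and are commonly regulated together, and both ribosomal genes are often used as internal references in vessel studies.

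RNA was taken from male rats, with 3 arrays in each of 4 groups. WKY are Wistar-Kyoto rats, the normotensive strain, and SHR-C are spontaneously hypertensive rats, and both received water in place of a drug. SHR-Bh are hypertensive rats given the herbal preparation BSJY at its high dose (6.75 g/ml/day as the labels write it), and SHR-Ca are hypertensive rats given captopril, an inhibitor of angiotensin-converting enzyme (0.125 g/ml/day). All were gavaged daily for 16 weeks from an age of 12 weeks, and an age of 32 weeks is given for the samples, which does not match the starting age plus the weeks of treatment. Whether an array held the RNA of 1 animal is not stated, so each p-value refers only to the spread among these arrays, which may be technical. In whole vessel RNA, fewer cells of a type and less RNA per cell cannot be told apart. None of 48 marker genes of 10 cell types listed for the vessel wall and its neighbours was named on the array, so the labelled tissue could not be checked against its markers.

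The strains were also parted by the scanner record. The 3 WKY arrays were scanned together, 625 to 629 days apart from the 9 SHR arrays, which were scanned within 4 days of each other in 4 sessions. Strain and scan session therefore cannot be told apart in any comparison with WKY. SHR-Bh and SHR-C shared no session either, so their direct comparison cannot tell treatment from session. The 75th percentile of intensity was 344.7 on WKY 2 and 384.8 on WKY 3, above all SHR arrays (109.8 to 190.2), while WKY 1, at 182.0, fell within their range. A level below is the log2 of the processed intensity minus the log2 of that percentile, so 0 is the 75th percentile of the array. Precision is limited by having 3 arrays a group.

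The starts of both ribosomal genes are shown because such genes are known for a pyrimidine run at this place. They come from RefSeq on the GRCr8 build, whose table held both ribosomal genes. The Rpl13a stretch is chr1:104748894-104748943 and the Rplp1 stretch is chr8:71290853-71290902, both on the minus strand. Each has 30 bases before the listed start and 20 bases from it on. The capitals mark the longest run of C and T that the stretches share.
Rpl13a: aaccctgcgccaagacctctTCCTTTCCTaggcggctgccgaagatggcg
Rplp1: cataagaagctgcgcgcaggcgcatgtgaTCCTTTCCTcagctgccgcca

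The shared run, TCCTTTCCT, was picked after the sequences were seen. It is 9 bases long and began at position -10 in Rpl13a and at position -1 in Rplp1, counting the listed start as +1 and the base before it as -1. In Rpl13a it thus lay wholly before the listed start, outside the listed message, and in Rplp1 it crossed the start. Of 33469 listed promoters, 24 (0.0717%) held it on the strand of the gene in the same 50-base stretch, and 40 (0.12%) on either strand. The match describes the letters only, and no measurement here bears on its use.

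Eif4b was far higher on every SHR array than on any WKY array, as the plot of levels by array shows. Its level was -0.56, -0.12 and 0.03 on WKY 1, 2 and 3, close to the 75th percentile of the array. It was 2.43, 2.79 and 3.06 on SHR-C 1, 2 and 3. The SHR-Bh arrays read 2.52, 2.52 and 2.61, and the SHR-Ca arrays read 3.03, 2.43 and 2.82. The lowest SHR array thus lay well above the highest WKY array, while the 3 SHR groups overlapped one another. The share of all tested probes that part all SHR arrays from WKY was not counted.

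The order of group means for Eif4b was SHR-Ca (2.76 ± 0.31), SHR-C (2.76 ± 0.32), SHR-Bh (2.55 ± 0.06) and WKY (-0.22 ± 0.31; SD, n = 3 each). Only the step from SHR-Bh down to WKY exceeded the spread between arrays. The unscaled intensity gave the same order of strains, 124 to 391.8 in the normotensive and 631 to 1261 in the hypertensive strain, although WKY 2 and 3 were the brightest arrays by their 75th percentile.

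**Figure D1:**
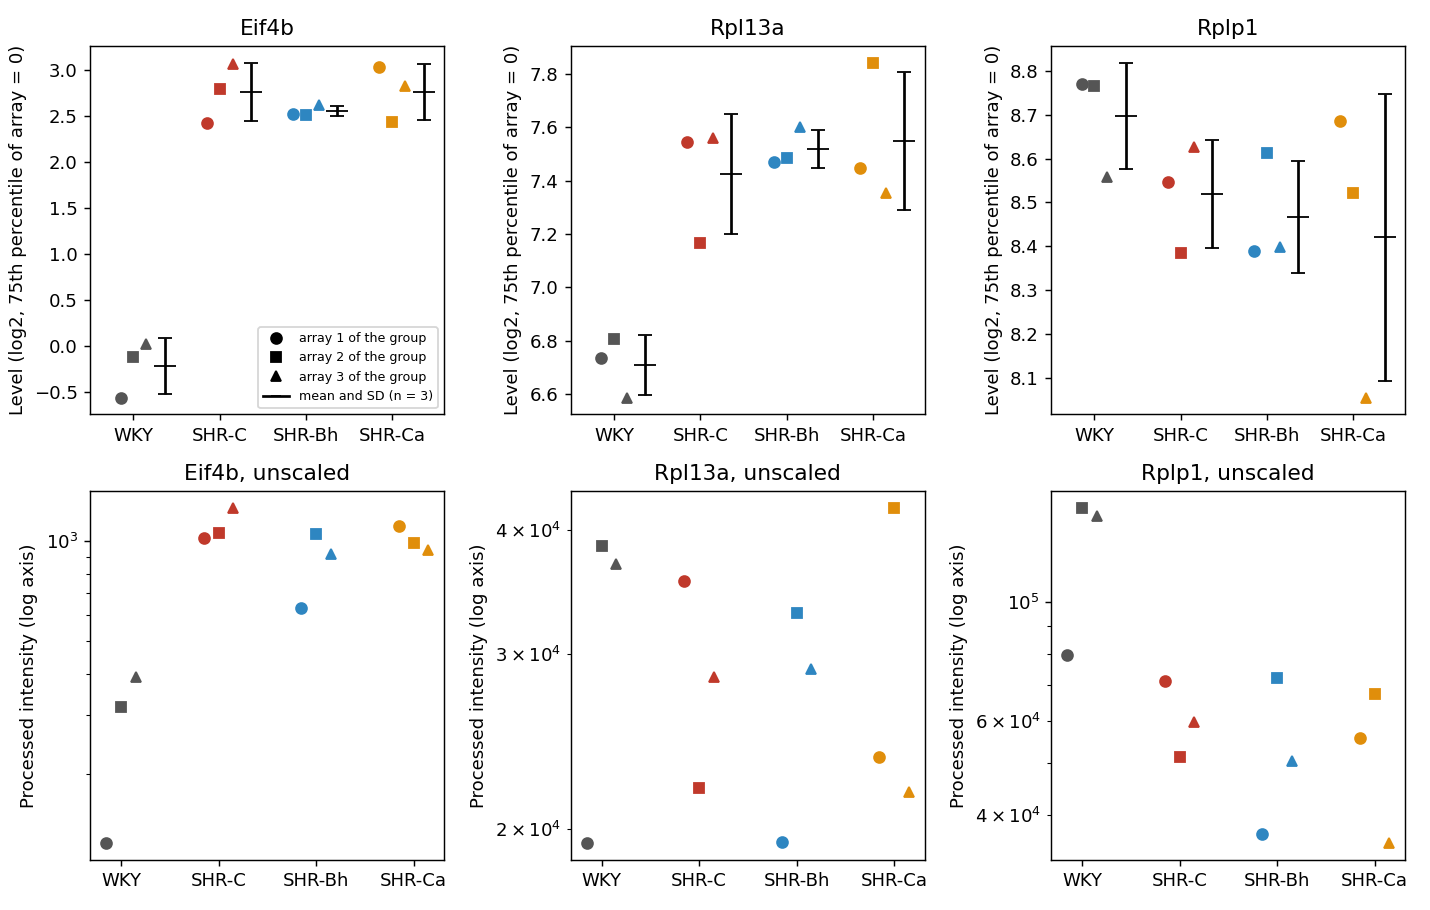
Levels of Eif4b, Rpl13a and Rplp1 on each of the 12 arrays, in log2 units relative to the array's 75th percentile (upper row, with mean and SD over 3 arrays beside the points), and the unscaled processed intensity of the same probes on a log axis (lower row). All 9 SHR arrays lie above the WKY arrays for Eif4b in both rows; for Rpl13a they do so in the upper row alone, and for Rplp1 they lie below WKY in the lower row alone.

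Rpl13a was moderately higher in the hypertensive strain once each array was scaled. Its level was 6.73, 6.80 and 6.59 on WKY 1, 2 and 3. It was 7.55, 7.17 and 7.56 on SHR-C 1, 2 and 3. The SHR-Bh arrays stood at 7.47, 7.49 and 7.60, and the SHR-Ca arrays at 7.45, 7.84 and 7.35. All 9 SHR arrays were above all 3 WKY arrays, and the SHR groups overlapped. How many tested probes did so was not counted. Group by group, 26.9%, 27.7% and 25.2% of tested probes lay wholly above WKY in SHR-C, SHR-Bh and SHR-Ca. Separation of a single SHR group from WKY was thus common on these arrays.

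The group means of Rpl13a ran from SHR-Ca (7.55 ± 0.26) through SHR-Bh (7.52 ± 0.07) and SHR-C (7.42 ± 0.22) to WKY (6.71 ± 0.11; SD, n = 3 each). The separation of the strains rested on the scaling between arrays. Unscaled, the probe read 19380 to 38550 on WKY arrays and 19440 to 42090 on SHR arrays, and 1 of the 9 SHR arrays exceeded the brightest WKY array. With quantile normalization, with normexp background correction and with scaling to 8 other reference genes, all 9 SHR arrays again lay above the WKY arrays.

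Rplp1 as scaled did not separate the groups. It read 8.77, 8.77 and 8.56 on WKY 1, 2 and 3 and 8.55, 8.38 and 8.63 on SHR-C 1, 2 and 3. It was 8.39, 8.61 and 8.40 on the SHR-Bh arrays and 8.68, 8.52 and 8.05 on the SHR-Ca arrays, where SHR-Ca 3 was the lowest of the 12. From the highest mean down, WKY stood at 8.70 ± 0.12, followed by SHR-C at 8.52 ± 0.12, SHR-Bh at 8.47 ± 0.13 and SHR-Ca at 8.42 ± 0.33 (SD, n = 3 each), and each neighbouring pair overlapped. Of the SHR arrays, 6 lay below all WKY arrays. Unscaled, all 9 did, at 35400 to 72150 against 79470 to 150000. The share of all probes that did so was not counted.

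The spot readings lay close together once spots flagged as outliers had been dropped. Over the 12 arrays, 2 spots were dropped for Eif4b, 1 for Rpl13a and 12 for Rplp1. Of the Rplp1 spots dropped, 8 were on SHR-Bh 1, where the probe had 30 spots. The SD over the remaining spots of a probe on 1 array had a median of 0.05 for Eif4b, 0.05 for Rpl13a and 0.07 for Rplp1 in log2 units. The highest such SD was 0.115, for Eif4b on WKY 1. Between arrays of a group the SD reached 0.32, 0.26 and 0.33 for the 3 genes. All 3 probes were well above background on all 12 arrays and none was saturated. Among tested probes, Eif4b had a mean level at the 82.8 percentile, Rpl13a at 99.1 and Rplp1 at 99.9.

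SHR-C against WKY addresses the difference of strain without a drug, together with that of scan session. Eif4b rose by 2.98 in log2 units (SE 0.25, 95% interval 2.42 to 3.53, limma adjusted p = 3.8e-06), and Rpl13a rose by 0.72, or 1.64-fold (SE 0.21, 95% interval 0.25 to 1.19, limma adjusted p = 0.013). Rplp1 differed by -0.18 (SE 0.22, 95% interval -0.66 to 0.30, limma adjusted p = 0.50) and did not pass. The 2 calls of 3 stand beside a background in which 61.7% of 29619 tested probes passed in either direction and 21.9% passed as higher. Of those calls 35.5% were higher, against 47.7% with quantile normalization, 57.3% with normexp and 60.1% with median scaling. Among the 17886 probes that exceeded background well on all 12 arrays, as the 3 probes did, 30.5% passed as higher. Of the 32 named genes that were tested, these 3 included, 18 passed as higher and 0 as lower. With quantile normalization these counts were 17 and 0, with normexp 14 and 1, and with median scaling 23 and 0. A call as higher was thus common among the named genes. Groups did not overlap, with SHR-C the higher, for Eif4b and Rpl13a and for 26.9% of tested probes. A call against WKY by itself was thus common on these arrays, and of the 3 genes Eif4b had the largest change.

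The change of Eif4b was larger than that of 98.1% of all tested probes, and of 98.3% of the 17886 brighter ones just named. That of Rpl13a exceeded 74.5% and 65.9% of these sets, and that of Rplp1 55.0% and 38.0%. Of the 38321 probes on the array, 39 were matched to a named gene and 37277 had 1 spot. These percentages are thus not ranks among genes. Among the 32 named genes that were tested, ranked from the largest rise down, Eif4b was number 5, Rpl13a number 18 and Rplp1 number 28. The plot of changes over the tested probes marks Eif4b in the upper tail and both ribosomal genes within the bulk.

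**Figure D2:**
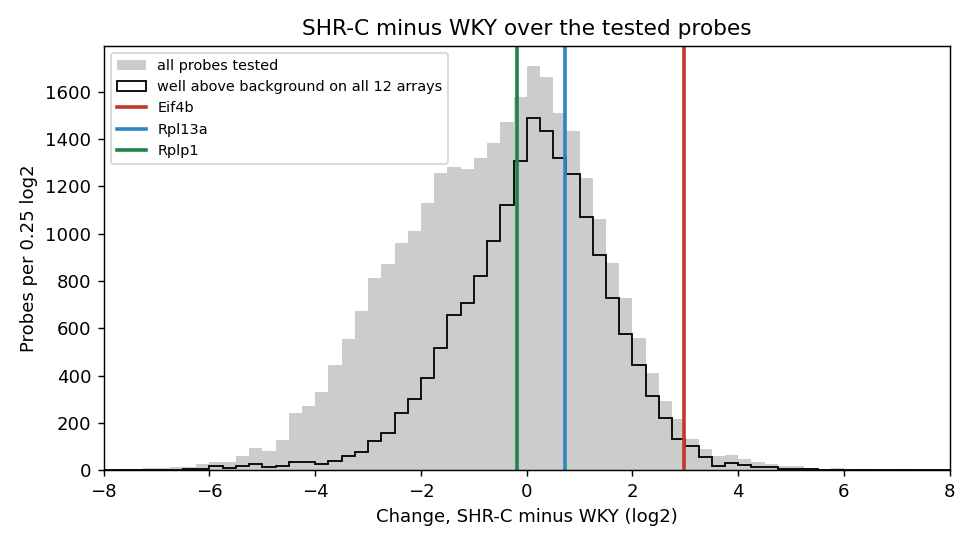
Number of probes (vertical axis, per 0.25 log2) against their change from WKY to SHR-C (horizontal axis, log2, shown from -8 to 8), for all tested probes in grey and for those above background on all 12 arrays as a black outline. The coloured lines mark Rplp1 at -0.18 (0.65 with median scaling), Rpl13a at 0.72 and Eif4b at 2.98.

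The median change itself moved with the scaling. It was -0.42 over all tested probes as scaled here, -0.09 with quantile normalization, 0.185 with normexp and 0.40 with scaling to the array median. Relative to that median, Eif4b stood at 3.4, 3.07, 2.29 and 3.4 under these settings, and Rpl13a at 1.14, 0.62, 0.34 and 1.14. Against the median of the probes that were well above background throughout, Eif4b stood at 2.77, 2.72, 2.26 and 2.77, and Rpl13a at only 0.51, 0.27, 0.31 and 0.51. Rplp1 stood at 0.24, -0.02, -0.59 and 0.24 against the median of all tested probes, so its direction there depended on the setting, and at -0.38, -0.37, -0.62 and -0.38 against that of the brighter ones.

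The Rpl13a call in SHR-C against WKY was lost with normexp (change 0.53, limma adjusted p = 0.060) and its value rose to 1.54 with median scaling. Over the 20 other settings, left-out arrays included, its adjusted p ran from 0.000285 to 0.060. Eif4b passed in all 20, with changes between 2.48 and 3.8. The setting with scan session as a block could not take out a shift between sessions, since no session held both strains. Rplp1 turned to 0.65 with median scaling (limma adjusted p = 0.050, just above the threshold) and stayed between -0.40 and -0.11 otherwise.

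**Figure D3:**
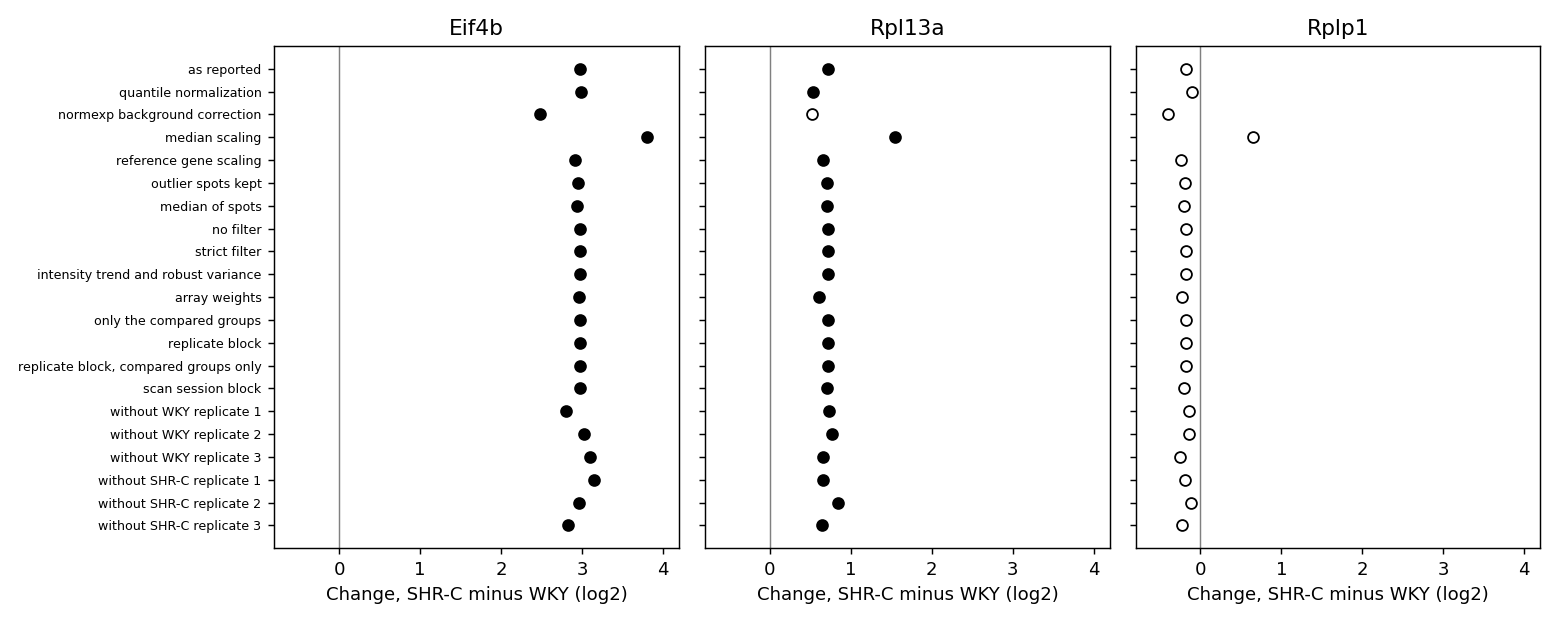
Change from WKY to SHR-C (horizontal axis, log2) of each gene under the reported setting and 20 others, of which 6 leave out 1 array; filled points passed the limma test at an adjusted p under 0.05. Eif4b is filled throughout between 2.48 and 3.8, Rpl13a is open with normexp, and Rplp1 is open under every setting and right of 0 with median scaling alone.

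Treated hypertensive rats also differed from WKY in Eif4b and Rpl13a, although these comparisons share the WKY arrays with the one above and are no separate evidence. In SHR-Bh, Eif4b was higher than in WKY by 2.77 (SE 0.25, limma adjusted p = 5e-06), a 6.81-fold rise, and Rpl13a by 0.81 (SE 0.21, limma adjusted p = 0.0058). Rplp1 differed by -0.23 (SE 0.22, limma adjusted p = 0.37). Again 2 of the 3 genes passed as higher, where 67.2% of tested probes passed in either direction and 24.4% as higher. The higher calls were 36.4% of the calls, and 47.7%, 55.5% and 61.1% with quantile normalization, normexp and median scaling. Among probes well above background throughout, 35.1% passed as higher. Of the 32 named genes, 15 passed as higher, and 16, 14 and 27 under those 3 settings, with 0 lower in each. Groups did not overlap for Eif4b and Rpl13a and for 27.7% of probes in the upward direction.

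In SHR-Ca, Eif4b was higher than in WKY by 2.98 (SE 0.25, limma adjusted p = 2.9e-06), 7.89-fold, and Rpl13a by 0.84 (SE 0.21, limma adjusted p = 0.0047), 1.79-fold. Rplp1 differed by -0.28 (SE 0.22, limma adjusted p = 0.28). Here 66.4% of probes passed in either direction and 23.5% as higher, and 25.2% did not overlap with SHR-Ca the higher. The higher calls were 35.4% of the calls, and 47.1%, 53.3% and 58.9% under those 3 settings, and 32.8% of the probes well above background throughout passed as higher. Of the 32 named genes, 17 passed as higher and 2 as lower. Under those 3 settings 18, 17 and 26 were higher and 2, 2 and 0 lower. Eif4b and Rpl13a passed as higher in every other setting run, 20 in SHR-Bh and 19 in SHR-Ca, with Rpl13a at 1.82 and 1.79 under median scaling. Rplp1 was less settled. It passed as higher with median scaling in SHR-Bh (0.78, limma adjusted p = 0.021) and in SHR-Ca (0.67, limma adjusted p = 0.041), and as lower in SHR-Ca with array weights (-0.57, limma adjusted p = 0.0036).

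None of the 3 genes passed the test between treated and untreated hypertensive rats. SHR-Bh differed from SHR-C by -0.21 for Eif4b (95% interval -0.77 to 0.35, limma adjusted p = 0.77), by 0.09 for Rpl13a (-0.38 to 0.56, adjusted p = 0.89) and by -0.05 for Rplp1 (-0.53 to 0.43, adjusted p = 0.94). The background was low as well, with 28 probes, 0.0945%, passing in this comparison. That count was 92 without SHR-Bh 1 and 0 without any one of SHR-C 1, 2 and 3 and SHR-Bh 2 and 3. These intervals leave room for changes of up to about 0.8 in log2 units. Since SHR-Bh and SHR-C shared no scan session, treatment and session cannot be told apart in this direct comparison.

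SHR-Ca differed from SHR-C by 0.003 for Eif4b (95% interval -0.55 to 0.56, limma adjusted p = 1), by 0.12 for Rpl13a (-0.35 to 0.60, adjusted p = 0.84) and by -0.10 for Rplp1 (-0.58 to 0.38, adjusted p = 0.88), and 83 probes (0.28%) passed. That count was 149 without SHR-Ca 1, and between 38 and 49 when SHR-C 1 (38), SHR-Ca 2 (41), SHR-Ca 3 (46) or SHR-C 2 (49) was left out. One scan session held 2 arrays of each of these groups. Within it the differences were -0.19 for Eif4b, 0.28 for Rpl13a and 0.10 for Rplp1 (limma adjusted p between 0.97 and 0.99), so Eif4b and Rplp1 had the opposite sign there.

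Between the treatments, SHR-Bh differed from SHR-Ca by -0.21 for Eif4b (95% interval -0.77 to 0.34, limma adjusted p = 0.85), by -0.03 for Rpl13a (-0.50 to 0.44, adjusted p = 0.98) and by 0.05 for Rplp1 (-0.43 to 0.53, adjusted p = 0.97). In limma 0 probes (0%) passed and 2126 had an unadjusted p under 0.05. Without SHR-Bh 1 there were 20 calls, and 1 without SHR-Ca 1. In the session that held 2 SHR-Bh arrays and 1 SHR-Ca array the values were -0.25, 0.18 and 0.34, each with limma adjusted p = 1. No session held both SHR-Bh and SHR-C. A p above the threshold does not show that the groups were alike.

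**Figure D4:**
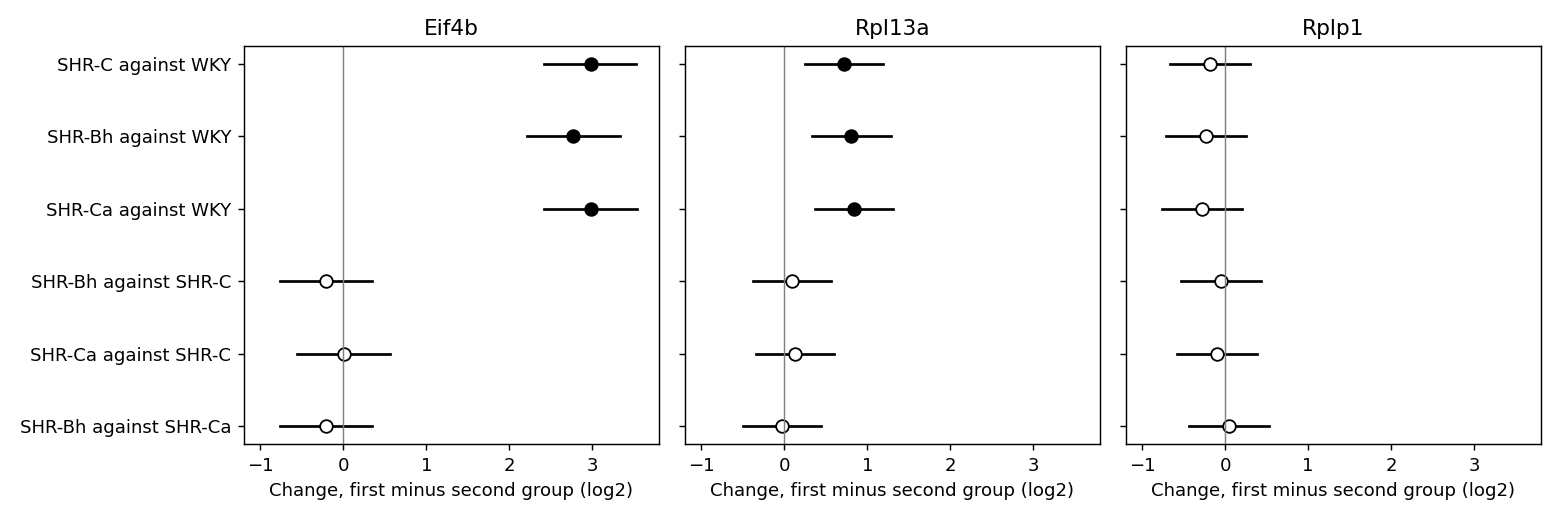
Fitted change of each gene (horizontal axis, log2, first group minus second) in the 6 comparisons, with 95% intervals from the limma fit as bars and filled points where the adjusted p was under 0.05. Eif4b lies between 2.77 and 2.98 and Rpl13a between 0.72 and 0.84 in the 3 comparisons with WKY, and every interval among SHR groups includes 0.

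The difference between 2 genes on the same array does not depend on how the array was scaled as a whole. It was used to see whether the 3 genes changed by unequal amounts, with no test, since the genes were chosen with earlier results known. The share of all gene pairs that part the groups in this way was not counted. Eif4b relative to Rpl13a was -7.29, -6.92 and -6.56 on WKY 1, 2 and 3. It was -5.12, -4.38 and -4.50 on SHR-C, -4.94, -4.97 and -4.99 on SHR-Bh, and -4.41, -5.41 and -4.53 on SHR-Ca. All 9 SHR arrays were above the WKY arrays, so Eif4b changed more than Rpl13a between WKY and SHR arrays, by 2.26 for SHR-C, 1.96 for SHR-Bh and 2.14 for SHR-Ca.

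Eif4b relative to Rplp1 ran from -9.33 to -8.53 for WKY and from -6.12 to -5.23 over the SHR arrays, also with no overlap. The shift from WKY was 3.16 for SHR-C, 3.00 for SHR-Bh and 3.26 for SHR-Ca, which is 7.99 to 9.56-fold.

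The 2 ribosomal protein genes did not keep a constant ratio. Rpl13a relative to Rplp1 was -2.04, -1.96 and -1.97 on WKY 1, 2 and 3, the tightest group for this pair. It was -0.9998, -1.22 and -1.07 on SHR-C, -0.92, -1.13 and -0.80 on SHR-Bh, and -1.24, -0.68 and -0.70 on SHR-Ca. Every SHR array lay above every WKY array, and the SHR groups overlapped. The shift from WKY came to 0.89 for SHR-C, 1.04 for SHR-Bh and 1.12 for SHR-Ca, or 1.86, 2.06 and 2.17-fold, against an SD between arrays of 0.04 in WKY and 0.11 to 0.32 in the SHR groups. It shows unequal change of the pair and does not say which of them moved. With quantile normalization the shifts were 0.64, 0.69 and 0.81, and with normexp the WKY arrays (-1.98 to -1.95) again lay below all SHR arrays (-1.18 to -0.57). Other genes also changed by unequal amounts, such as Hprt1 (0.83) and Ldha (-0.49) in SHR-C against WKY. The unequal change is thus not shown to be particular to Rpl13a and Rplp1.

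**Figure D5:**
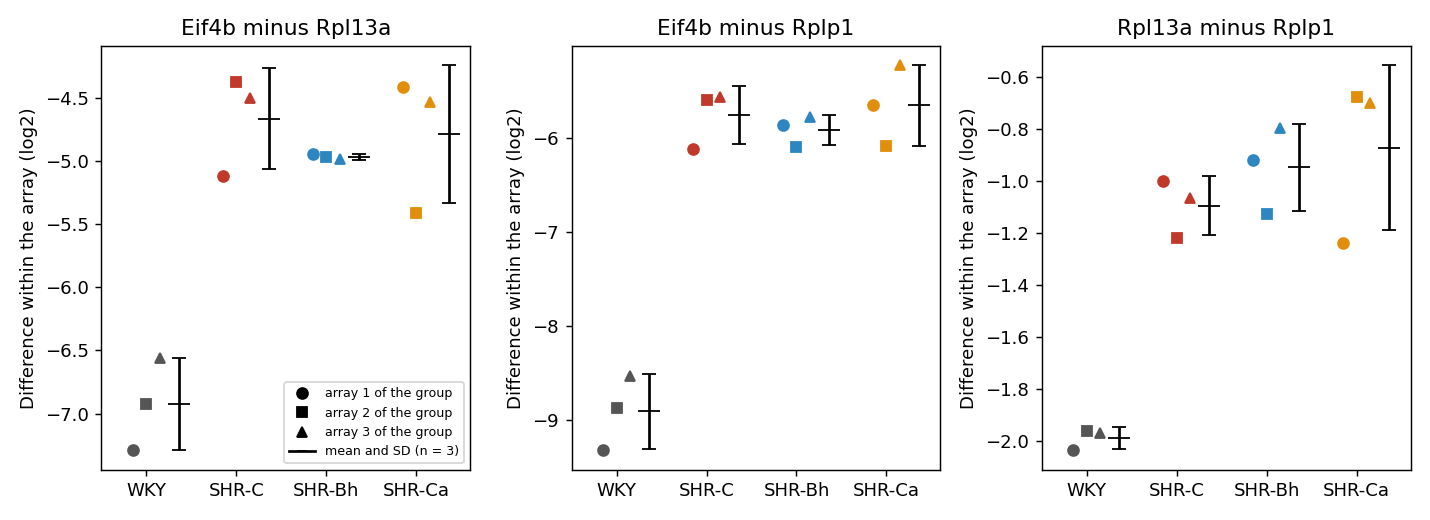
Differences between 2 genes on the same array (vertical axis, log2) for the 12 arrays, with mean and SD over 3 arrays beside the points of each group. In all 3 panels the WKY arrays lie below all 9 SHR arrays; for Rpl13a minus Rplp1 they sit between -2.04 and -1.96.

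The pathway beyond these genes could not be followed. Of the initiation and elongation factors, cytoplasmic and mitochondrial ribosomal proteins and mTOR pathway genes on the list used here, which matched 500 protein-coding genes of the rat reference table, the probes named 3, and these are the genes described. Eif4b and Rpl13a passed as higher in each comparison with WKY, none passed as lower, and none passed among SHR groups. Beside them, 21.9% to 24.4% of tested probes and 15 to 18 of the 32 named genes passed as higher against WKY. Among SHR groups at most 0.28% of tested probes passed.

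Both ribosomal genes stood on the array beside 8 other genes commonly used as references, on the same kind of probe with 30 spots. In SHR-C against WKY, 2 of these 8 passed as higher (Hprt1 and Hsp90ab1) and 0 as lower, with a median change of -0.09 that became 0.74 with median scaling, and a range of -0.49 to 0.83. The count of higher and lower calls was 1 and 0 with quantile normalization, 0 and 1 with normexp, and 3 and 0 with median scaling. Rpl13a (0.72) and Rplp1 (-0.18) both fell inside that range. In SHR-Ca against WKY, 2 of the 8 passed as higher and 2 as lower (5 and 0 with median scaling), with a range of -1.08 to 0.88. In SHR-Bh 1 passed as higher and 0 as lower (7 and 0 with median scaling), with a range of -0.47 to 1.02. Scaled to the mean of these 8 genes, the difference of Rpl13a from WKY was 0.66, 0.59 and 0.90 for SHR-C, SHR-Bh and SHR-Ca, and that of Eif4b was 2.92, 2.55 and 3.04.

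Likeness of pattern was measured as the root mean square difference between the levels of 2 genes over the 12 arrays, each centred on its own mean. Of the 31 other named genes, those closest to Eif4b were Trim2, a ubiquitin ligase (0.39), Cdh2, which encodes N-cadherin (0.53), and Enpp1, which makes pyrophosphate from extracellular ATP (0.69). Closest to Rpl13a were Hprt1, a purine salvage enzyme (0.17), Magoh, a component of the exon junction complex (0.23), and Pdcd10 (0.25). Closest to Rplp1 were Pop7, a subunit of RNase P (0.29), B2m, the light chain of class I histocompatibility molecules (0.30), and Ldha, a lactate dehydrogenase subunit (0.34).

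Over the 12 arrays the 3 members were not one another's nearest genes. Rpl13a was number 7 in likeness to Rplp1 and Rplp1 number 14 in likeness to Rpl13a, at 0.47. Eif4b was number 25 for each of them, at 0.98 from Rpl13a and 1.39 from Rplp1.

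The step from WKY to SHR, which goes with the scan session, weighs on these ranks, and the order differed over the 9 SHR arrays alone. There Rpl13a was number 2 for Rplp1, at 0.199, next to B2m at 0.198, and Rplp1 was number 6 for Rpl13a. Rplp1 was number 4 for Eif4b, at 0.28, and Rpl13a number 7. Eif4b was number 9 for Rplp1 and 13 for Rpl13a. The nearest to Eif4b were Hsp90ab1, a cytosolic chaperone (0.22), Ndfip1 (0.27) and Pdcd10 (0.28), while Trim2, Cdh2 and Enpp1 were numbers 13, 19 and 15. Pop7, Magoh and Hprt1 were nearest to Rpl13a, at 0.15 to 0.18.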

How the data were processed

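The 12 Agilent arrays carry 1 dye, Cy3, and total RNA of the aorta. The authors deposited 1 scanner file per array with a processed intensity per spot, which Feature Extraction 11.0.1.1 had corrected for background, per the file headers. The headers record no normalization between arrays. The accessions were named through a RefSeq table on GRCr8, whose build differs from that of the array design.

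Spots flagged as outliers were dropped, log2 intensities were averaged per probe, and the array's log2 75th percentile was then taken off. A probe counted as well above background on an array where more than 50% of its spots were. Of 38321 probes, 29619 were tested, being so on all 3 arrays of at least 1 group. All 4 groups were fitted in limma 3.58.1 (R 4.3.3) with Benjamini-Hochberg adjustment over all tested probes and a threshold of 0.05, and the fit was tested on simulated data. Normexp (offset 50) used the median spot intensity in place of the mean intensity that had been planned. Arrays of a group correlated at 0.946 to 0.989. The deviations of same-numbered arrays from their group means correlated at 0.177 to 0.477 between WKY and SHR-C and at 0.154 to 0.308 between WKY and SHR-Bh. Between the other groups these correlations ran from -0.55 to 0.121. The labels do not pair the arrays. Correlations between arrays of different number are not given, so these values do not establish a pairing. The reported fit used none, and the replicate number was a block in alternatives only.

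The members, lists and tests were chosen with earlier results of these data known. The rule for named genes took the 3 members in all comparisons and, for each, the 3 named genes nearest in pattern over the arrays. The alternatives are described in the closing section. The low-dose BSJY group named in the labels was not analysed here.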

Additional observations from a re-analysis of the deposited data

How the results depend on the processing

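Eif4b passed as higher against WKY in every SHR group under every alternative run, left-out arrays included, and Rpl13a did so except for SHR-C with normexp (0.53, limma adjusted p = 0.060). Against WKY, the scan session block could not take out a shift between sessions, since no session held both strains. No member passed between SHR groups under any alternative run, so the sign changes there are between values that did not pass. In each run of values below the cause of the move was not tested, except that the strict filter tests fewer probes, that leaving out an array leaves fewer samples, and that median scaling shifts all probes of an array together.

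With median scaling, Rplp1 turned to 0.65, 0.78 and 0.67 against WKY in SHR-C, SHR-Bh and SHR-Ca, to 0.13 in SHR-Bh against SHR-C and to 0.024 in SHR-Ca against SHR-C, and Rpl13a to 0.032 in SHR-Bh against SHR-Ca. Calls were 17 in SHR-Bh against SHR-C and 1 in SHR-Bh against SHR-Ca. With array weights, Rplp1 passed as lower in SHR-Ca against WKY (-0.57), Eif4b turned to -0.034 in SHR-Ca against SHR-C and Rpl13a to 0.15 in SHR-Bh against SHR-Ca. Calls were 263 in SHR-Bh against SHR-C, 707 in SHR-Ca against SHR-C and 4106 in SHR-Bh against SHR-Ca.

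With quantile normalization, Rplp1 turned to 0.0089 in SHR-Bh against SHR-C, 0.11 in SHR-Ca against SHR-C and -0.10 in SHR-Bh against SHR-Ca, with 18 calls in SHR-Bh against SHR-C. Rpl13a over Rplp1 within arrays was then 0.64, 0.69 and 0.81 for SHR-C, SHR-Bh and SHR-Ca against WKY. Scaled to the 8 reference genes, Rpl13a turned to -0.065 in SHR-Bh against SHR-C, and Rplp1 to 0.017 in SHR-Ca against SHR-C and -0.23 in SHR-Bh against SHR-Ca, with 78 calls in SHR-Bh against SHR-C. With normexp, calls were 10794, 11957 and 12253 for SHR-C, SHR-Bh and SHR-Ca against WKY, 5 in SHR-Bh against SHR-C and 11 in SHR-Ca against SHR-C, and Eif4b over Rpl13a was 1.66 in SHR-Bh against WKY. With the strict filter, which keeps probes well above background on all 12 arrays, calls were 9583, 10684 and 10490 against WKY in the same order and 31 in SHR-Ca against SHR-C. With no filter there were 5 in SHR-Bh against SHR-C. With only the compared groups fitted there were 0 in SHR-Bh against SHR-C and 0 in SHR-Ca against SHR-C.

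With scan session as a block, Rplp1 turned to 0.44 in SHR-Bh against SHR-C, Eif4b to -0.19 and Rplp1 to 0.10 in SHR-Ca against SHR-C, and Rpl13a to 0.18 in SHR-Bh against SHR-Ca, with 0 calls in SHR-Bh against SHR-C and 0 in SHR-Ca against SHR-C. Within the shared session Eif4b was -0.19 and Rplp1 0.10 in SHR-Ca against SHR-C, with 0 calls, and Rpl13a was 0.18 in SHR-Bh against SHR-Ca.

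Leaving out each array in turn moved SHR-Bh against SHR-C between -0.035 and 0.16 for Rpl13a and between -0.13 and 0.0020 for Rplp1, with 0 to 92 calls. SHR-Ca against SHR-C ran from -0.16 to 0.17 for Eif4b, from -0.022 to 0.22 for Rpl13a and from -0.23 to 0.085 for Rplp1, with 38 to 149 calls. SHR-Bh against SHR-Ca ran from -0.13 to 0.12 for Rpl13a and from -0.14 to 0.18 for Rplp1, with 0 to 20 calls. With the replicate number as a block over all 4 groups, the change of Rpl13a in SHR-C against WKY was 0.72 (limma adjusted p = 0.025) and that of Eif4b was 2.98. With the block in a fit of the compared groups only, chosen after seeing the data, limma's adjusted p for Rpl13a was 0.035 in SHR-C and 0.015 in SHR-Bh against WKY. Neither block changed a call of a member or moved a count of calls by over 1.5 times. Signal over background did not limit the members, which were well above it on all 12 arrays.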
